A study of Mus musculus with 9 samples.

Results

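The expression of 44 type I interferon response genes was examined in RNA-seq libraries of primary mouse microglia. The genes were listed by name: interferon β and its receptor, the transcription factors and nucleic acid sensors of the pathway, and the antiviral effectors that interferon induces. The list was made with earlier results of these data known. They are 44 of 54119 genes in the table, and all 44 passed the filter on low counts that left 16273 genes for testing. The study delivered siRNA against Chd8 or Tsc2, genes linked to autism spectrum disorder, to ask what their loss changes in microglia. The 9 libraries form 3 groups of 3, from cells given a control siRNA, an siRNA against Chd8 or an siRNA against Tsc2, and each group carries the replicate numbers 1, 2 and 3. All libraries, the controls included, therefore come from transfected cells, and no library of cells without siRNA was analysed here. The cells were wild-type C57BL/6J microglia shaken off mixed glial cultures of late embryonic brains, so the siRNA lowers an mRNA without altering the gene, and cells other than microglia can remain. The methods describe RNA taken 3 days after the siRNA, the results describe LPS, a bacterial cell wall component, given for 3 days, and the sample labels name no LPS. The methods also list experiments done without LPS, and the RNA-seq is not in that list.

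Type I interferons are secreted proteins that a cell releases, for example, when its sensors meet foreign or misplaced nucleic acid. Interferon β binds the receptor made of Ifnar1 and Ifnar2, and the receptor activates transcription factors, Stat2 and Irf9 among them, that act at the interferon-stimulated response element (ISRE) of their target genes. Among the targets are the sensors and Irf7 themselves, so that the pathway feeds itself. Microglia are the resident macrophages of the brain and a main source of this response in brain tissue.

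Total counts per library ranged from 16913448 to 33213801. Before any comparison the targeted genes were checked against the labels, with levels given in CPM, library-size-scaled counts with edgeR's TMM factors. Chd8 was at 93.6 to 118 CPM in control siRNA and at 86.8, 44.5 and 38.3 CPM in the Chd8 siRNA libraries 1, 2 and 3, so that library 1 was the closest to the controls. Tsc2 was at 38.9 to 40.8 CPM in control siRNA and at 24.6, 30.6 and 36.5 CPM in Tsc2 siRNA, with library 3 the closest to the controls. Neither difference passed edgeR's quasi-likelihood test with siRNA as the only factor (adjusted p = 1.00 for both). With the replicate number as a block, Chd8 passed in its knockdown (log2 fold change −0.93 ± 0.14, SE, edgeR adjusted p = 0.00777) and Tsc2 did not in its own (−0.39 ± 0.12, SE, edgeR adjusted p = 0.219). Of 10 microglia markers, Csf1r (405 to 572 CPM), Itgam (264 to 760 CPM) and Ptprc (610 to 872 CPM) were abundant, Cx3cr1 (6.25 to 13.4 CPM) and P2ry12 (0.686 to 2.78 CPM) were low, and Tmem119 was too low to pass the filter. The summed level of 8 astrocyte markers was at most 14.6 CPM in the libraries numbered 1, 24.4 to 27.3 CPM in those numbered 2, and 47.1 to 106 CPM in those numbered 3, with the highest value in the control library 3. None of those 8 markers was at 0 in every library.

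The promoters of the 44 genes were searched for the core sequence of the ISRE. Promoters of 300 bases (250 before and 50 after the start site, RefSeq, mouse assembly GRCm38.p6) matched 34 of the 44 genes by symbol, and Dhx58, Ifi204, Ifi27l2a, Mx1, Mx2, Oas2, Parp14, Rtp4, Usp18 and Zbp1 had no entry. The core of the ISRE, GAAA and GAAA with any 2 bases between them, was searched on both strands, and 21 of the 34 genes (61.8%) held it, against 3.99% of all 27025 genes with a promoter. The interferon-γ activation site, TTC and GAA with any 3 bases between them, was found in 10 of the 34 genes (29.4%), against 9.55% of all genes, and 2 of the 33 ISRE matches overlapped one. The matches below are from genes whose values are described in the following paragraphs, and from neighbours in the Ifit cluster that show how far its members share this sequence. Each line gives 30 bases, read 5′ to 3′ on the strand that carries the core, with the match in capitals.
Ifit1, chr19:34640775-34640804, minus strand: actgagactgGAAAGTGAAActgaagcctg
Ifit1, chr19:34640794-34640823, minus strand: tcagcagtgaGAAACTGAAActgagactgg
Ifit3, chr19:34583363-34583392, minus strand: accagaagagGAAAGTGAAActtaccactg
Ifit3b, chr19:34607759-34607788, minus strand: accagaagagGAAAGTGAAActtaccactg
Ifit1bl1, chr19:34602053-34602082, plus strand: ccaacctacaGAAAATGAAAcctacagagt
Irgm1, chr11:48871428-48871457, minus strand: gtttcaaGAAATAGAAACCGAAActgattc
Gbp5, chr3:142496759-142496788, minus strand: tctctaaactGAAATTGAAActacacaagt
Gbp2, chr3:142620594-142620623, minus strand: ttaagacagtGAAAGTGAAActaaaagagt
Rsad2, chr12:26456553-26456582, plus strand: tctgttttctGAAAATGAAAgttggaccag
Isg15, chr4:156200871-156200900, minus strand: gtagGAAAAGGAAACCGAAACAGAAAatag

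The windows of Ifit3 and Ifit3b were identical, and Ifit1 carried matches that began 104 and 85 bases before its start site. Irgm1 had a run of 16 bases made of overlapping matches, 30 to 15 bases before its start site, and Isg15 a run of 22 bases. Start sites here are those of the RefSeq promoters. In 15 of the 39 promoters of these genes, the last 50 bases begin a transcript in GENCODE, the annotation used for the counts. The start sites of these annotations can thus differ, and the Irgm1 run lies within the GENCODE span of the gene. No match lay in the window of Ifnb1, Cmpk2, Ifit2, Oasl1, Oasl2, Irf7, Irf9, Ifnar1, Ifnar2, Ifi44, Ifi47, Herc6 or Xaf1. Several members also lie side by side in the genome (GRCm38). The 5 Ifit genes lie on chromosome 19 between 34550694 and 34650009, the 4 Gbp genes on chromosome 3 between 142493978 and 142638008, and Rsad2 (26442746 to 26456452) next to Cmpk2 (26469204 to 26479837) on chromosome 12.

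The pathway was strongly expressed in all 9 libraries. The 44 genes held 3.71% to 4.79% of all counts in the control libraries, 4.23% to 5.07% in Chd8 siRNA and 3.97% to 4.79% in Tsc2 siRNA. Rsad2, which encodes the antiviral enzyme viperin, alone held 0.764% to 1.12%. Levels of different genes were compared in control siRNA after correction for transcript length. Each transcript's count was divided by its length, and the quotients were scaled to the same total in every library. These length-scaled levels are thus not the CPM values given elsewhere divided by length. Rsad2 was the most abundant member (1261 ± 184, SD, n = 3), ahead of Ifit3 (697 ± 45.3, SD, n = 3), Cmpk2 (607 ± 52.7, SD, n = 3) and Ifit2 (561 ± 68.8, SD, n = 3). The SDs of Ifit3 and Cmpk2 overlapped, as did those of Cmpk2 and Ifit2. Among sensors, the DNA-binding protein Ifi204 was highest (383 ± 18.8, SD, n = 3), and among transcription factors Irf7 (201 ± 19.0, SD, n = 3). The level of Ifi204 is uncertain, since 46% of the 31-base words of its main transcript also occur in its relatives Mndal, Ifi211 or Ifi207. So is the level of Ifit3, with 61.8% of these words also in Ifit3b. The receptor genes were low, with Ifnar2 at 30.3 ± 3.00 and Ifnar1 at 14.4 ± 2.55 (SD, n = 3), and the ligand Ifnb1 was at 7.13 ± 3.61 (SD, n = 3). Of 17 other interferon genes (the interferon α genes, Ifne, Ifnk and Ifng among them), none passed the filter and 15 had 0 counts in every library. The highest count was 14, for Ifna16 in a single library.

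**Figure D1:**
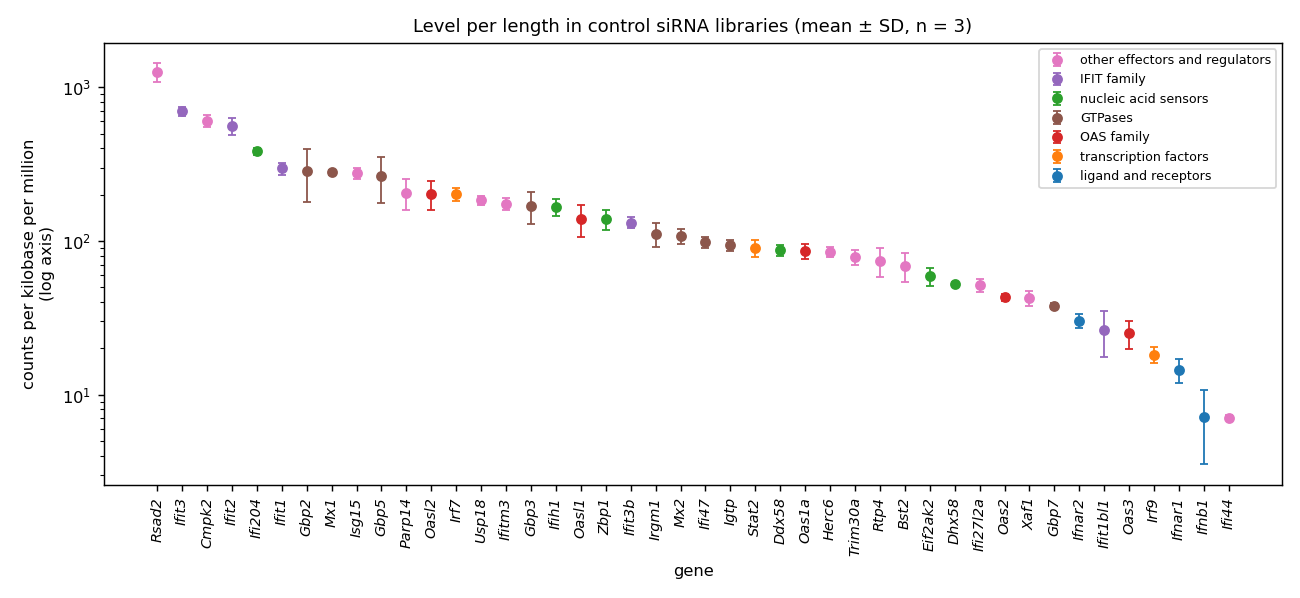
Mean length-scaled level of each gene in the 3 control siRNA libraries on a log axis, with error bars of 1 SD and colours by role. Counts were divided by transcript length and scaled to the same total in every library. Rsad2, Ifit3, Cmpk2 and Ifit2 lie at the top, above 560, and Ifnb1 and Ifi44 at the bottom, near 7.

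In Chd8 siRNA-treated microglia the interferon response genes lay slightly above control siRNA. The median log2 fold change was 0.16 over the 44 genes and −0.02 over all 16273 genes, and 39 of 44 were above 0 (47.8% of all genes were). At every replicate number, 31 of the 44 genes were higher in Chd8 siRNA than in the control of the same number, against 17.7% of all genes, and 0 of 44 were lower at every number, against 18.3% of all genes. Genes of one pathway are not independent of each other, so these counts are not counts of independent results. The list was also made with earlier results of these data known, so the shares against all genes are not a test of it. Without single libraries the median of the 44 genes was 0.08 to 0.25, with 0.08 without the Chd8 siRNA library 2 and 0.25 without the control library 2. The 9 microglia markers tested had a median log2 fold change of 0.13 in Chd8 siRNA, with 6 higher and 2 lower at every number, so they lay above control by about as much as the 44 genes. The median was −0.27 over 8 astrocyte markers and −0.83 over 4 fibroblast and vessel markers, or −0.16 and −0.49 with the block. It was −0.40 over 3 neuron markers and 0.07 over 3 oligodendrocyte lineage markers, or −0.27 and 0.06 with the block. The part of these cells in the shift was not tested. In bulk RNA, a change in the share of responding cells and a change in RNA per cell cannot be told apart.

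With siRNA as the only factor, edgeR's quasi-likelihood test called 0 of the 44 genes at an adjusted p of 0.05 and a 1.5-fold change, and 0% of all genes tested. DESeq2 called 0 of the 44 as well, and 0.0553% of all genes. At an unadjusted p under 0.05, edgeR gave 2 genes, Ifi27l2a and Ifit1, against 3.82% of all genes. Libraries with one replicate number deviated from their group means together, so the replicate number was also entered as a block. The block left the fold changes close to their values without it and narrowed the spread, and edgeR then called 3 of the 44 genes, Ifnb1, Ifit1bl1 and Ifi27l2a, all higher, against 0.246% of all genes called higher. At the same adjusted p without the fold limit, 8 of the 44 were higher (0.627% of all genes) and 0 of 44 lower (0.412% of all genes). DESeq2 with the block called the same 3 genes (0.492% of all genes called higher), and without the fold limit 15 of the 44, all higher (2.33% of all genes), adding Gbp3, Gbp7, Ifitm3, Isg15, Oasl2, Rtp4 and Usp18 to the 8 of edgeR. In what follows, a gene that passed or did not pass is one judged by edgeR, unless DESeq2 is named.

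Of the ligand and receptors, all 3 were higher in Chd8 siRNA at every replicate number. Ifnb1, the interferon β gene (chromosome 4, 88522025 to 88522774), was at 6.75, 9.36 and 15.4 CPM in the control libraries 1, 2 and 3 and at 13.6, 30.6 and 31.9 CPM in the Chd8 siRNA libraries. Each Chd8 siRNA library exceeded the control of its number, but library 1 lay below the control library 3, so the groups overlapped. The log2 fold change was 1.27 ± 0.60 (SE, edgeR adjusted p = 1.00) and with the block 1.25 ± 0.24 (SE, edgeR adjusted p = 0.0218). Leaving out the control library 2 or 3 or the Chd8 siRNA library 1 or 2 ended this call, with log2 fold changes of 1.07 to 1.16 and adjusted p of 0.105 to 0.223 by edgeR with the block. Ifnar1 was at 117, 104 and 77.0 CPM in control siRNA and 131, 118 and 102 CPM in Chd8 siRNA, and Ifnar2 at 109, 100.2 and 78.6 CPM in control siRNA and 132, 106 and 82.4 CPM in Chd8 siRNA. Their groups overlapped, and with log2 fold changes of 0.24 and 0.15 neither passed either fit.

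Transcription factors and sensors differed least. Irf7, which drives transcription of interferon genes, was at 815, 828 and 616 CPM in control siRNA and 939, 838 and 620 CPM in Chd8 siRNA, and these groups overlapped. The log2 fold changes of Irf7, Irf9 and Stat2 lay between −0.04 and 0.09. Those of the 6 sensors (Ifih1, Ddx58, Dhx58, Zbp1, Ifi204 and the double-stranded RNA-activated kinase Eif2ak2) lay between −0.05 and 0.17. The OAS family is named for enzymes whose product activates RNase L. The log2 fold changes of its 5 genes (Oas1a, Oas2, Oas3, Oasl1 and Oasl2) lay between −0.05 and 0.24. None of these 14 genes passed edgeR's test with or without the block, and Oasl2 passed the adjusted p in DESeq2 with the block. Ifi204 was at 1624, 1938 and 1650 CPM in control siRNA and 1867, 2163 and 1820 CPM in Chd8 siRNA, higher at each number with overlapping groups. Oasl2, the most abundant OAS family gene, was at 605, 1012 and 840 CPM in control siRNA and 682, 1197 and 1032 CPM in Chd8 siRNA, so that its libraries differed more by number than by siRNA.

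The IFIT family, proteins that bind foreign RNA and block its translation, had the highest median log2 fold change of the groups of effectors, 0.28, and all 5 genes were higher at every replicate number. Ifit1 (chromosome 19, 34640871 to 34650009) was at 1488, 1669 and 1586 CPM in control siRNA and 1828, 2165 and 2095 CPM in Chd8 siRNA. The lowest Chd8 siRNA library was above the highest control library, a separation that 5 of the 44 genes showed in this direction (Ifit1, Ifit3b, Igtp, Mx1 and Usp18; 4.17% of all genes did). The log2 fold change of Ifit1 was 0.36 ± 0.12 (SE, edgeR adjusted p = 1.00), and with the block 0.36 ± 0.06 (SE, edgeR adjusted p = 0.00777), so it passed without reaching the limit of 1.5-fold. Part of its main transcript is shared with Ifit1bl1 and Ifit1bl2. Without the control library 2 or 3 or the Chd8 siRNA library 2 or 3, the adjusted p was 0.0565 to 0.0941 by edgeR with the block.

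Ifit1bl1 (chromosome 19, 34592891 to 34601956), a less abundant relative of Ifit1, was at 154, 127 and 71.3 CPM in control siRNA and 243, 191 and 113 CPM in Chd8 siRNA. It was higher at each number, and the Chd8 siRNA library 3 lay below the control libraries 1 and 2. Its log2 fold change was 0.64 in both fits, with an adjusted p of 1.00 without the block and 0.00343 with it by edgeR, and 19.2% of the 31-base words of its main transcript also occur in Ifit1bl2 or Ifit1. Leaving out the control library 1 took it to 0.58, just under the fold limit. Ifit2 was at 3644, 5230 and 4064 CPM in control siRNA and 4429, 6086 and 5167 CPM in Chd8 siRNA, higher at each number. The log2 fold change of Ifit2 with the block was 0.28 ± 0.05 (SE, edgeR adjusted p = 0.0222), and the call at that adjusted p was lost without the control library 1, 2 or 3 or the Chd8 siRNA library 2 or 3. Ifit3 and Ifit3b, at 0.13 and 0.16, did not pass, and their reads cannot be cleanly separated, because 61.8% and 55.2% of their 31-base words occur in other genes.

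All 9 GTPases (Mx1, Mx2, Ifi47, Igtp, Irgm1, Gbp2, Gbp3, Gbp5 and Gbp7) were higher in Chd8 siRNA at every replicate number, with log2 fold changes from 0.06 for Mx2 to 0.31 for Irgm1. The immunity-related GTPases and guanylate-binding proteins act on membranes around intracellular pathogens. Mx1 and Mx2 are named for antiviral proteins, but the annotation lists Mx2 as a polymorphic pseudogene and the most abundant Mx1 transcript as a target of nonsense-mediated decay, so their levels here are levels of RNA alone. Irgm1 (chromosome 11, 48861968 to 48871683), a regulator of the other immunity-related GTPases, was at 387, 593 and 489 CPM in control siRNA and 467, 695 and 656 CPM in Chd8 siRNA. Gbp5, a guanylate-binding protein, was at 826, 1874 and 1398 CPM in control siRNA and 1099, 2125 and 1672 CPM in Chd8 siRNA. In both genes the groups overlapped, and the spread between numbers was larger than the difference between siRNAs. With the block, Irgm1 (log2 fold change 0.31 ± 0.07, SE, edgeR adjusted p = 0.0499) and Gbp5 (0.28 ± 0.06, SE, edgeR adjusted p = 0.0446) passed without the fold limit. Each lost this in 7 of the 9 fits that left out a library, all except those without the Tsc2 siRNA library 1 or 3. Igtp, another immunity-related GTPase, varied little between numbers, at 374, 383 and 367 CPM in control siRNA and 428, 418 and 405 CPM in Chd8 siRNA (two-sided exact permutation p = 0.1, and no lower p is possible with 3 libraries in each group). Of the 31-base words of the main Igtp transcript, 16.4% also occur in Irgm2 or Irgm1.

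The 13 other effectors and regulators were Isg15, Usp18, Herc6, Rsad2, Cmpk2, Ifi44, Ifi27l2a, Ifitm3, Bst2, Trim30a, Parp14, Xaf1 and Rtp4, of which 9 were higher at every number and 0 lower. Ifi27l2a (chromosome 12, 103442167 to 103443680), a small interferon-induced membrane protein, was at 48.9, 57.8 and 38.6 CPM in control siRNA and 83.2, 93.5 and 56.8 CPM in Chd8 siRNA. The Chd8 siRNA library 3 lay just under the control library 2, and the other values did not overlap. Ifi27l2a had a log2 fold change of 0.68 ± 0.22 (SE, edgeR adjusted p = 1.00), and with the block 0.67 ± 0.09 (SE, edgeR adjusted p = 0.00343), a call that was kept in all 9 fits that left out a library. Of the 31-base words of its main transcript, 6% also occur in its relative Ifi27l2b. Cmpk2, a mitochondrial nucleotide kinase, was at 3369, 4546 and 3347 CPM in control siRNA and 4041, 5433 and 4749 CPM in Chd8 siRNA. With the block Cmpk2 had a log2 fold change of 0.34 ± 0.06 (SE, edgeR adjusted p = 0.0140), lost at that adjusted p without the control library 2 or 3 or the Chd8 siRNA library 3. Its neighbour Rsad2 was at 7523, 11109 and 9269 CPM in control siRNA and 8793, 11845 and 11076 CPM in Chd8 siRNA, higher at each number with a log2 fold change of 0.18 that did not pass.

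Usp18, which removes Isg15 from proteins and restrains the receptor, was at 636, 654 and 587 CPM in control siRNA and 716, 865 and 656 CPM in Chd8 siRNA. The groups of Usp18 did not overlap, by a margin of under 2 CPM, and its log2 fold change of 0.25 passed neither edgeR fit, though it passed the adjusted p in DESeq2 with the block. The ubiquitin-like modifier Isg15 itself, with a run of ISRE matches in its promoter, had a log2 fold change of 0.23 and likewise passed in DESeq2 with the block alone. In the control library 3 the microglia markers summed to 2145 CPM, the lowest of all libraries, and the astrocyte markers to 106 CPM, the highest. Col1a1, a fibroblast marker, was lower in Chd8 siRNA with the block (log2 fold change −1.31, adjusted p = 0.0218 by edgeR). The part of these cells in the differences was not tested. In the libraries numbered 2 and 3 alone, a choice made after seeing the data, edgeR with the block called the same 3 genes (0.293% of all genes called higher).

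**Figure D2:**
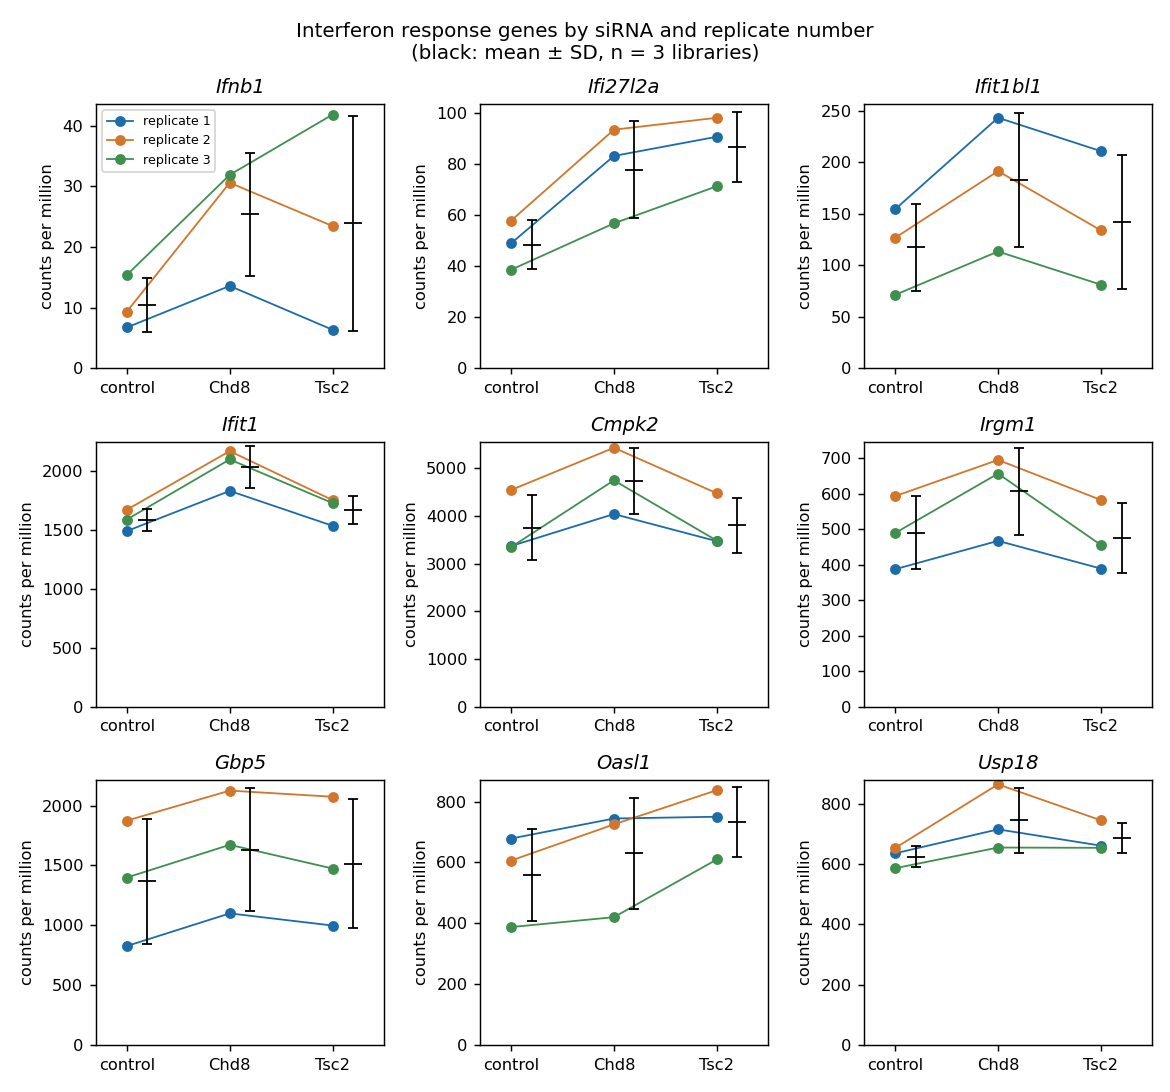
Level of 9 genes in each library in CPM, with lines joining the libraries that share a replicate number and black marks for the mean and 1 SD of 3 libraries. For Ifit1, Cmpk2 and Irgm1 every line is higher in Chd8 siRNA than in control siRNA and lower again in Tsc2 siRNA, whereas for Ifi27l2a every line is highest in Tsc2 siRNA.

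In Tsc2 siRNA-treated microglia 1 of the 44 genes, Ifi27l2a, passed as higher at the fold limit, and only with the block. The values rest on the same 3 control libraries as those of Chd8 siRNA. The median log2 fold change was 0.09 (−0.02 over all genes), 36 of 44 were above 0 (47.6% of all genes), 22 of 44 were higher at every replicate number (15.5% of all genes), and 1 gene, Parp14, was lower at every number (16.3% of all genes). The median rested on single libraries: it was −0.013 without the Tsc2 siRNA library 2, 0.03 without the control library 1, 0.05 without the control library 3 and 0.17 without the control library 2. Without the block, edgeR called 0 of 44 (0% of all genes) and gave 1 gene, Ifi27l2a, at an unadjusted p under 0.05 (2.61% of all genes), and DESeq2 called 0 of 44 (0.0369% of all genes). With the block, edgeR called 1 of the 44 genes, Ifi27l2a, which was higher (0.19% of all genes called higher), and DESeq2 with the block called the same gene (0.307%). Without the fold limit Oasl1 was added, for 2 of 44 higher (0.375% of all genes) and 0 lower (0.264% of all genes). Without the fold limit, 5 of 44 passed in either direction in DESeq2 with the block (1.83% of all genes), namely Bst2, Ifi27l2a, Irf7, Oas3 and Oasl1, all higher.

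Ifi27l2a was at 90.7, 98.2 and 71.4 CPM in Tsc2 siRNA, each above the highest control library at 57.8 CPM. Against the controls this was a log2 fold change of 0.84 ± 0.22 (SE, edgeR adjusted p = 1.00), and with the block 0.85 ± 0.09 (SE, edgeR adjusted p = 0.000551), a call kept in all 9 fits that left out a library. In 4 of the 44 genes the Tsc2 siRNA libraries all lay above the controls, namely Ifi27l2a, Ifi44, Igtp and Usp18, against 3.87% of all genes. Ifi44, a cytoplasmic interferon-induced protein, was at 37.2, 41.2 and 26.9 CPM in control siRNA and 42.5, 46.2 and 46.1 CPM in Tsc2 siRNA. With a log2 fold change of 0.36 without the block (adjusted p = 1.00) and 0.38 with it (adjusted p = 0.249 by edgeR), Ifi44 did not pass. Igtp (399, 413 and 408 CPM) and Usp18 (662, 746 and 655 CPM) were the genes that lay above all control libraries in both knockdowns, as 0.94% of all genes did, and neither passed either fit in Tsc2 siRNA.

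The OAS family stood highest among the effector groups in Tsc2 siRNA, with a median log2 fold change of 0.16 and 3 of 5 genes higher at every number. Oasl1 (chromosome 5, 114923240 to 114937915), which limits the translation of Irf7, was at 678, 606 and 387 CPM in control siRNA, 744, 725 and 420 CPM in Chd8 siRNA and 750, 837 and 610 CPM in Tsc2 siRNA. Against control siRNA, Tsc2 siRNA gave Oasl1 a log2 fold change of 0.39 ± 0.26 (SE, edgeR adjusted p = 1.00), and with the block 0.43 ± 0.09 (SE, edgeR adjusted p = 0.0418). It kept that adjusted p in 3 of the 9 fits that left out a library, those without the control library 1, the Tsc2 siRNA library 1 or the Chd8 siRNA library 3. Irf7 itself was at 947, 958 and 759 CPM in Tsc2 siRNA, higher than the control of each number, with a log2 fold change of 0.24 that passed neither edgeR fit but passed the adjusted p in DESeq2 with the block.

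Ifnb1 was in Tsc2 siRNA at 6.36, 23.5 and 41.9 CPM in libraries 1, 2 and 3. Library 1 was slightly below its control and the other two were above theirs, and the log2 fold change was 1.19 ± 0.59 (SE, edgeR adjusted p = 1.00), or 0.97 ± 0.24 with the block (SE, edgeR adjusted p = 0.101). Of the 9 fits with the block that left out a library, 2 called Ifnb1 in Tsc2 siRNA, those without the control library 1 or the Tsc2 siRNA library 1, and over the 9 fits the log2 fold change was 0.60 to 1.32. Ifnar1 was at 110, 96.7 and 87.1 CPM and Ifnar2 at 115, 101 and 91.0 CPM, within or close to the range of the controls. The IFIT genes (log2 fold changes 0.04 to 0.27), the GTPases (−0.20 to 0.15) and the sensors (−0.03 to 0.14) held no gene that passed either fit. Ifit1bl1 was at 211, 134 and 81.1 CPM in Tsc2 siRNA, with a log2 fold change of 0.27, or 0.24 with the block (edgeR adjusted p = 0.287). Ifit2 was at 4022, 5267 and 4051 CPM, Gbp5 at 997, 2073 and 1474 CPM, and Ifi204 at 1693, 2081 and 1735 CPM in Tsc2 siRNA. Oasl2 was at 672, 1172 and 901 CPM and Rsad2 at 7871, 10490 and 8440 CPM there. All 5 of these genes overlapped the controls, and none passed either fit. Among the 13 other effectors and regulators, 6 were higher in Tsc2 siRNA at every number. Parp14, an ADP-ribosyltransferase, was at 1914, 3026 and 2814 CPM in control siRNA and 1745, 2672 and 2362 CPM in Tsc2 siRNA, a log2 fold change of −0.19 that did not pass and was −0.37 to −0.04 without single libraries. The 9 microglia markers had a median log2 fold change of 0.14 in Tsc2 siRNA, or 0.21 with the block, above the median of the 44 genes, with 2 higher and 1 lower at every number. Aif1 alone of them passed the adjusted p with the block (log2 fold change 0.53, adjusted p = 0.0452 by edgeR). The 8 astrocyte markers had a median of −0.57, or −0.42 with the block, and none passed. Of the rarer lists, 3 neuron markers tested had a median of −0.68 (−0.93 with the block) with 2 lower at every number, 3 oligodendrocyte lineage markers −0.52 (−0.82 with the block) with 1 lower, and 4 fibroblast and vessel markers −0.12 (−0.01 with the block), and none passed. The part of these cells in the differences was not tested.

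**Figure D3:**
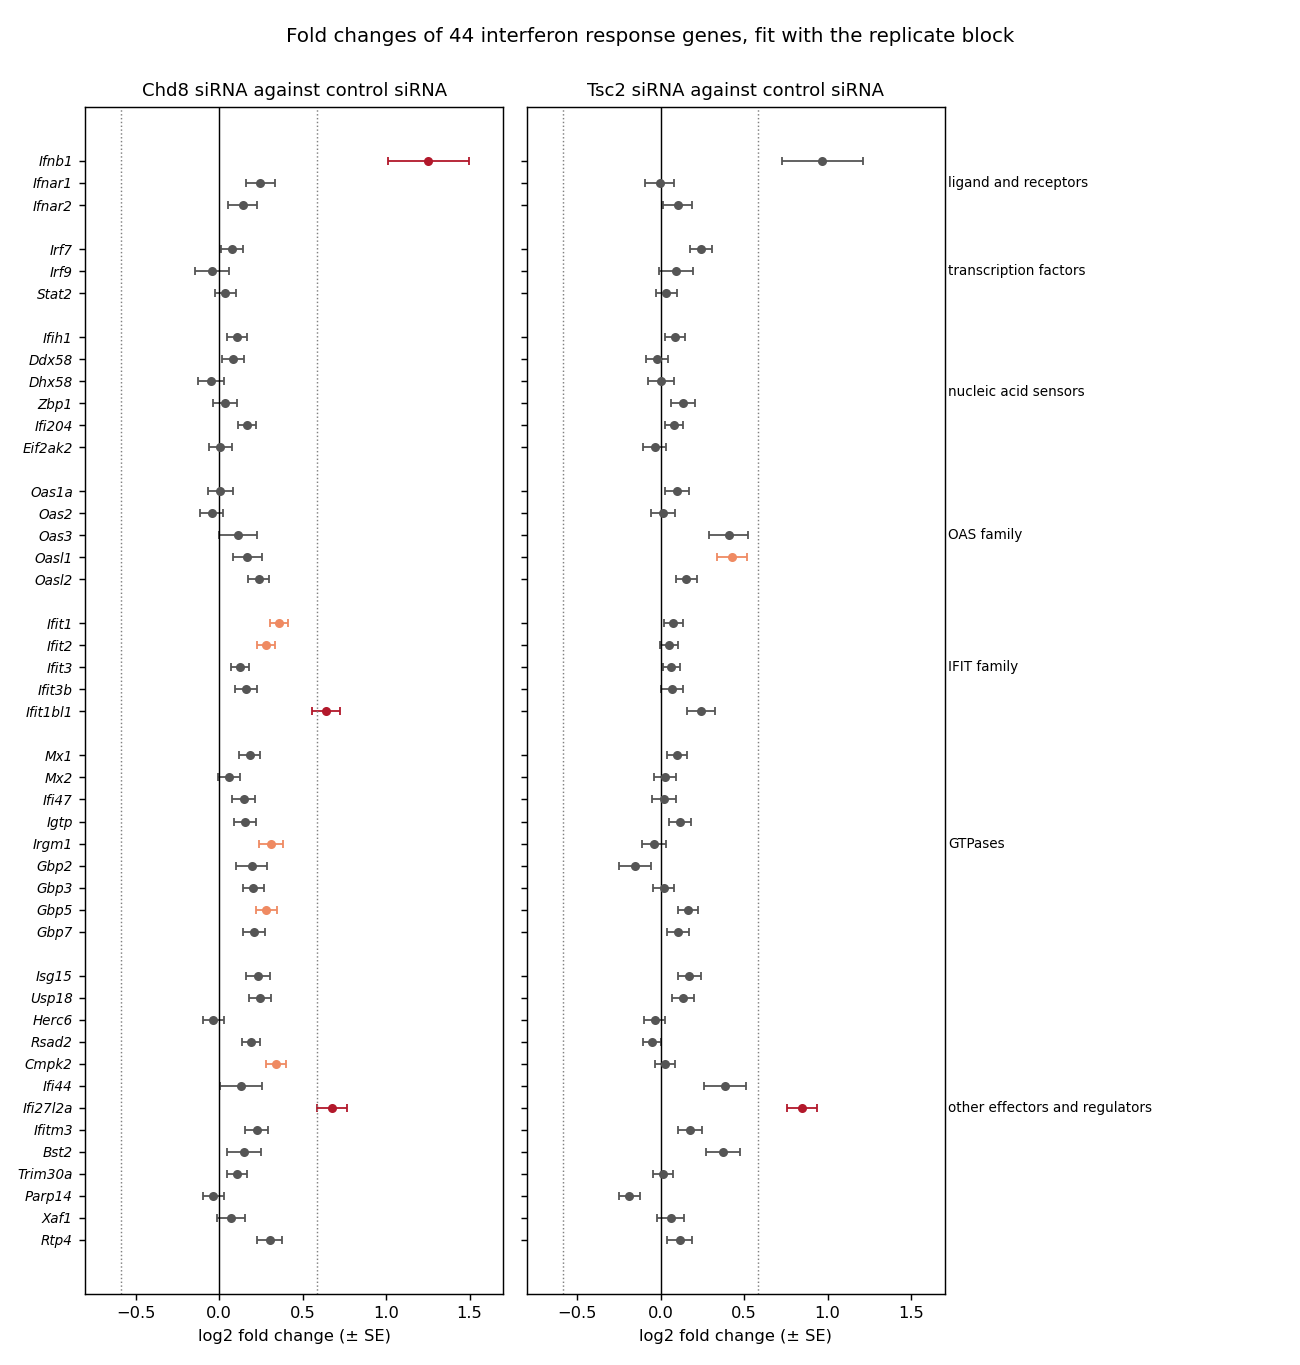
Log2 fold change of each gene against control siRNA with its standard error, from edgeR with the replicate block, by role. Dotted lines mark 1.5-fold, dark red marks genes called (Ifnb1, Ifit1bl1 and Ifi27l2a in Chd8 siRNA, Ifi27l2a in Tsc2 siRNA), and orange marks genes past the adjusted p of 0.05 alone.

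The Tsc2 siRNA and Chd8 siRNA libraries were then compared directly. Of the 44 genes, 21 were lower in Tsc2 siRNA at every replicate number (16.2% of all genes) and 8 higher (15.9% of all genes), and the median log2 difference was −0.07 (−0.00 over all genes), with 11 of 44 above 0 (49.4% of all genes). Without the Chd8 siRNA library 2 the median was 0.0089, without the Tsc2 siRNA library 1 −0.02, without the Tsc2 siRNA library 3 −0.04, without the Chd8 siRNA library 1 −0.11, and without the Tsc2 siRNA library 2 −0.14. The counts differed by role. In the IFIT family 4 of 5 genes and among the GTPases 6 of 9 were lower at every number and 0 higher, while in the OAS family 3 of 5 were higher and 1 lower. Without the block edgeR called 0 of 44 (0% of all genes) and gave 1 gene, Ifit1, at an unadjusted p under 0.05 (3.1% of all genes), and DESeq2 called 0 of 44 (0.0307% of all genes). With the block edgeR called 0 of 44 at the 1.5-fold limit (0.221% of all genes), and without that limit 3 of 44, Ifit1, Cmpk2 and Irgm1, all lower in Tsc2 siRNA (0.203% of all genes). DESeq2 with the block added Ifit1bl1, Ifit2 and Rsad2 to these, for 6 of 44 lower without the fold limit (0.989% of all genes).

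Ifit1 was at 1532, 1750 and 1725 CPM in Tsc2 siRNA, all below the lowest Chd8 siRNA library at 1828 CPM, which no other gene of the 44 showed (4.02% of all genes). Its log2 difference was −0.28 ± 0.06 with the block (SE, edgeR adjusted p = 0.0392). Cmpk2 was at 3472, 4477 and 3483 CPM in Tsc2 siRNA, a log2 difference of −0.32 ± 0.06 from Chd8 siRNA (SE, edgeR with the block, adjusted p = 0.0289). Irgm1 was at 389, 582 and 455 CPM, a log2 difference of −0.35 ± 0.07 (SE, edgeR with the block, adjusted p = 0.0450). Each of the 3 genes was close to control siRNA in Tsc2 siRNA, with log2 fold changes of 0.08, 0.02 and −0.04. Leaving out a library ended the call of Ifit1 in 7 of 9 fits, of Irgm1 in 7 and of Cmpk2 in 5.

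More of these genes differed between replicate numbers than between siRNAs. In edgeR's F test of the replicate number beside the siRNA, 14 of 44 genes (31.8%) were called with a spread of at least 1.5-fold between numbers, against 17.3% of all genes, and 35 of 44 passed the adjusted p alone, against 25% of all genes. Without the Chd8 siRNA library 3 the first count was 8. Of the 14 genes, 8 were highest in number 2 and lowest in number 1, namely Ifih1, Oasl2, Irgm1, Gbp2, Gbp3, Gbp5, Parp14 and Rtp4. Gbp2 averaged 928 CPM in the libraries numbered 1, 2030 CPM in those numbered 2 and 1429 CPM in those numbered 3, a log2 span of 1.13 (adjusted p = 1.67e-06 by edgeR). Gbp5 had a span of 1.06 in the same order (adjusted p = 3.8e-08 by edgeR).

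Others ran in another order. Oasl1, Ifit1bl1 and Bst2, the membrane tether of budding virus, were highest in number 1 and lowest in number 3, Oas3 and Ifi27l2a were highest in number 2 and lowest in number 3, and Ifnb1 was highest in number 3 and lowest in number 1. Ifnb1 therefore ran opposite to Ifit1bl1, whose span was 1.20 (adjusted p = 2.64e-07 by edgeR), while its own was 1.69 (adjusted p = 0.000302 by edgeR). Igtp and Mx2 had the smallest spans, 0.04 and 0.10. The replicate number also moved with the astrocyte marker sums given above, and the part of other cells in it was not tested. Whether libraries with one number share an animal, a culture or a preparation day is not given in the sources used here.

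**Figure D4:**
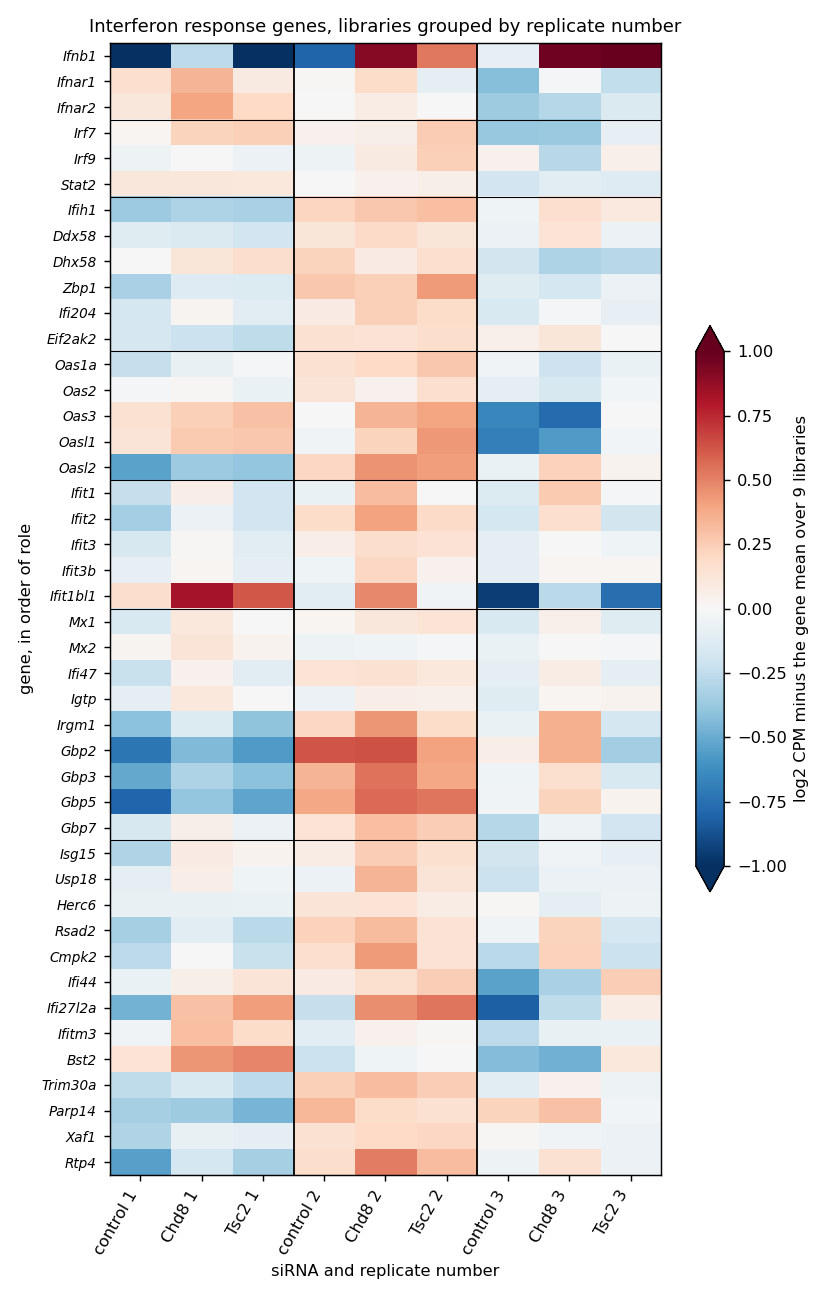
Deviation of each gene's log2 CPM from its mean over the 9 libraries, with libraries grouped by replicate number and genes in order of role, and colours limited to 1 in either direction. Gbp2, Gbp3 and Gbp5 lie below their means in all 3 libraries numbered 1 and above them in all 3 numbered 2.

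Other genes of the pathway were read from 91 further names, of which 74 passed the filter. No gene among them was called in any comparison with or without the block. Of 17 genes upstream of interferon, such as receptors, adaptors, kinases and transcription factors of the sensing pathways, 0 passed the adjusted p alone, and likewise 0 of 12 genes of receptor signalling. Of 45 other interferon-induced genes, 2 passed it with the block in Chd8 siRNA (0.627% of all genes) and 2 in Tsc2 siRNA (0.375% of all genes), all higher. Cxcl10, a chemokine that attracts T cells, was at 1476, 2174 and 1977 CPM in control siRNA and 1890, 2487 and 2658 CPM in Chd8 siRNA (log2 fold change 0.33, adjusted p = 0.0173 by edgeR with the block), and Ifi207 had a log2 fold change of 0.28 there (adjusted p = 0.0499). Tgtp2, a GTPase, was at 356, 252 and 219 CPM in control siRNA and 482, 359 and 353 CPM in Tsc2 siRNA (0.55, adjusted p = 0.0106 by edgeR with the block), and Ms4a4c had a log2 fold change of 0.55 there (adjusted p = 0.0178). Over the 45 genes, 22 were higher at every number in Chd8 siRNA (17.7% of all genes) and 3 lower (18.3% of all genes), and in Tsc2 siRNA 18 were higher (15.5% of all genes) and 5 lower (16.3% of all genes). Without the block, their median log2 fold change was 0.07 in Chd8 siRNA and 0.03 in Tsc2 siRNA. The medians of the 44 genes were larger, at 0.16 and 0.09.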

How the data were processed

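RNA-seq of 9 libraries was analysed, 3 each of primary microglia given control, Chd8 or Tsc2 siRNA, grouped by the siRNA in their titles. The authors quantified reads with Salmon 0.14.1 on mm10, used tximport, and what was deposited are estimated counts of each transcript without normalization. The annotation release is not given in the sources used here, the labels name a stranded SMARTer kit and the methods another total RNA preparation. Salmon divides reads between similar transcripts, so counts of near-identical genes are uncertain.

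Estimated counts were summed to genes with GENCODE mouse release 21 (139852 of 140948 transcripts matched, and the others held 0.27% of counts) and rounded. Genes were tested with edgeR 4.0.16 (quasi-likelihood, filterByExpr, TMM) in R 4.3.3 over all 9 libraries with siRNA as the factor, with Benjamini-Hochberg adjustment over 16273 genes, and called at an adjusted p of 0.05 and a 1.5-fold change. Standard errors were calculated back from the F statistic. The alternatives were other normalizations and filters, DESeq2 1.42.0, limma 3.58.1 (voom), fits of 2 groups, the replicate block, no fold limit, the top transcript of each gene, and each library left out in turn. Exact permutation tests used log2 CPM with a pseudocount of 0.5. For length-scaled levels, each transcript's count was divided by its annotated length. The quotients were then scaled to the same total in every library, without TMM factors. Tests were tried on simulated data.

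Pairing by the replicate numbers in the titles was checked over all genes: deviations from group means correlated at 0.337 to 0.628 in all 9 pairs of libraries with the same number and at −0.461 to 0.0559 in the 18 other pairs. The methods say that each replicate was a culture from a distinct brain, but not that one number marks one brain. If replicates are technical, p-values measure only that spread.

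A floor of 3 counts corresponds to 0.0903 to 0.177 CPM and covers counting error only. Genes with values in every library are the called members, the 3 with the lowest p in each comparison in each fit, those not overlapping control in both knockdowns, the member with the highest mean count in each role (not corrected for length), and Ifnb1, Ifnar1 and Ifnar2. Other genes with values (Parp14, Gbp2, Isg15, Cxcl10, Ifi207, Tgtp2, Ms4a4c, Col1a1 and Aif1) were chosen after their values were seen. The members and lists were chosen with earlier results of these data known.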

Additional observations from a re-analysis of the deposited data

Results flagged for a closer look

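In 3 genes the effects of the knockdowns differed from each other in edgeR's test of Tsc2 siRNA against Chd8 siRNA with the replicate block, at an adjusted p under 0.05: Ifit1 with a log2 difference of −0.281, Irgm1 with −0.350 and Cmpk2 with −0.317. All 3 were lower in Tsc2 siRNA at each of the 3 replicate numbers, and all differences were under the 1.5-fold limit. Without the block none of the 3 passed the adjusted p, and the adjusted p with the block rested on single libraries, as given with their values above. Other pairs of effects were not set against each other.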

How the results depend on the processing

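With siRNA as the only factor, 0 of the 44 genes were called in any siRNA comparison, and no other normalization, filter, tool or sample set without the block changed that. The replicate block gave 3 called genes for Chd8 siRNA, 1 for Tsc2 siRNA and 0 for Tsc2 against Chd8 siRNA, in edgeR and in DESeq2, and the libraries numbered 2 and 3 with the block gave 3, 2 and 0 (0.641%, 0.782% and 0.83% of all genes). That subset, chosen after seeing the data, leaves out the Tsc2 siRNA library with the lowest Tsc2 level, the one whose Ifnb1 lay below its control, so its second call for Tsc2 siRNA, Ifnb1, is given no weight. The block changed no other call among the 44 genes. Leaving out a library, with or without the block, gave 0 to 3 called genes for Chd8 siRNA (2 to 3 with the block), 0 to 2 for Tsc2 siRNA (1 to 2 with the block) and 0 for the direct comparison. The count for the replicate number was 14, 8 to 14 without single libraries and 35 without the fold limit. The median log2 fold change of the 44 genes ranged from 0.08 to 0.25 in Chd8 siRNA, from −0.0126 to 0.17 in Tsc2 siRNA and from −0.14 to 0.00888 between the knockdowns when single libraries were left out. Without single libraries and without the block, log2 fold changes ranged from −0.00348 to 0.56 for Gbp5 and from −0.0273 to 0.41 for Oasl1 in Chd8 siRNA, and from −0.13 to 0.56 for Ifit1bl1 in Tsc2 siRNA. With no change of sign they ranged in Chd8 siRNA from 0.16 to 0.47 for Irgm1, 0.16 to 0.44 for Ifit2, 0.37 to 0.90 for Ifit1bl1, 0.23 to 0.50 for Cmpk2 and 0.13 to 0.34 for Usp18, and in Tsc2 siRNA from 0.51 to 1.64 for Ifnb1, 0.19 to 0.56 for Oasl1 and 0.20 to 0.49 for Ifi44. Over all genes the replicate block gave 87, 63 and 36 calls in edgeR and 159, 103 and 98 in DESeq2, where the edgeR fit without it gave 0. Without single libraries the edgeR counts with the block were 20 to 108, 7 to 131 and 4 to 130, so the shares of all genes called also rest on single libraries. The cause of these changes was not tested. The biological coefficient of variation over all genes was 0.408 without and 0.234 with the block.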
